A study of Mus musculus with 4 samples.

Results

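The organic anion and drug transporters of the liver were followed here as 10 genes, 4 of them uptake carriers of the Slco family and 6 of them ATP-driven export pumps of the Abcb, Abcc and Abcg families. Every probe set whose platform annotation gave a member's symbol and no other was taken, which gave 18 of the 45101 probe sets of the array. Of these 18 probe sets, 13 were at 4 or more (log2) on all 4 arrays, and 5 were below 4 on all of them. A value below 4 was treated as too dim to measure. Both probe sets of Abcb1a were among the 5 dim ones, so 9 of the 10 genes could be compared, out of 8650 analysed genes in all. No probe set named a member together with another gene.

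Livers came from male C57BL/6J mice that were 8 to 12 weeks old when the diets began. For 20 weeks the mice ate a diet in which fat gave 45% (high-fat) or 10% (low-fat) of the energy, and palm oil stood in for lard in both. In the last week they were given clodronate liposomes, which kill the phagocytes that engulf them, or phosphate-buffered saline (PBS), by 2 injections into the peritoneal cavity. The 4 groups were high-fat diet with clodronate (RNA of 10 mice), high-fat diet with PBS (10 mice), low-fat diet with clodronate (8 mice) and low-fat diet with PBS (8 mice). RNA of all mice of a group was pooled in equal amounts and measured on 1 single-colour Affymetrix array, so the spread between mice was not measured and no group had a replicate. The number of arrays limits the precision of every value below. PBS held no liposomes, so what the carrier, the drug and the loss of macrophages did cannot be told apart.

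Hepatocytes take up bilirubin, bile acids, hormones and drugs from the blood through Slco carriers (the organic anion transporting polypeptides) on the sinusoidal membrane. After conjugation, the products leave through ABC pumps, either across the canalicular membrane into bile or back across the sinusoidal membrane into blood. The nuclear receptors CAR and PXR, the aryl hydrocarbon receptor and the oxidant sensor NRF2 are known to control several of these genes.

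Of the Slco carriers, Slco1b2, Slco1a4 and Slco1a1 lie close together on mouse chromosome 6. In the RefSeq gene table of assembly GRCm38.p6, Slco1a4 and Slco1a1 are neighbours among protein-coding genes, and Slco1c1, Slco1a6 and Slco1a5 lie in the same stretch. A promoter was listed in RefSeq (GRCm38.p6) for 8 of the 10 members. The promoters of the 3 clustered members are shown because Slco1a4 and Slco1a1 gave different diet values although they are neighbours. Each window holds 180 bases, from position -250 to -71 before the listed transcript start, read 5′ to 3′ on the gene's strand. Capitals mark the nuclear receptor half-site AGGTCA on either strand, which reads TGACCT on the reverse strand.
Slco1b2, chr6:141629268-141629447, plus strand: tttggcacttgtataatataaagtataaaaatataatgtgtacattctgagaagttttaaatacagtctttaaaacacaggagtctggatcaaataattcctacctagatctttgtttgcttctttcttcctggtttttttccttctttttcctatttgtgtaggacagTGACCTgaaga
Slco1a4, chr6:141856291-141856470, minus strand: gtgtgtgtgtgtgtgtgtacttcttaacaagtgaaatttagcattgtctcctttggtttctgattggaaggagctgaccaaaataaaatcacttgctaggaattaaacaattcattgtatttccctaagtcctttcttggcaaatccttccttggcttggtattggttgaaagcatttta
Slco1a1, chr6:141947033-141947212, minus strand: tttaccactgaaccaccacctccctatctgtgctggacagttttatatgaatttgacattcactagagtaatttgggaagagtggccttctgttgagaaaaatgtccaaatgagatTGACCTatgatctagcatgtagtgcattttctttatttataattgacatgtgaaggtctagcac
The half-site was found in the windows of Slco1b2 and Slco1a1, each time on the reverse strand, and not in that of Slco1a4. It was found in 10.2% of 32851 RefSeq promoter windows of the same length. A STAT site, TTCNNNGAA, was found in the Slco1b2 window and in 5.26% of all windows, and it does not overlap the half-site. The CAR and PXR half-site AGTTCA and the antioxidant response core TGACNNNGC were found in none of the 3 windows, against 9.13% and 6.65% of all windows, searched on both strands. AGGTCA and TGACNNNGC can overlap, since TGACC of the reverse half-site may begin the core. These letter matches only describe the windows.

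The study concerned Kupffer cells, macrophages that line the sinusoids, in fatty liver. Markers of these cells were checked first, then those of hepatocytes. Of 12 Kupffer cell and macrophage markers, 3 were at 4 or more in the high-fat clodronate pool and 2 in the low-fat clodronate pool, against 10 in the high-fat PBS pool and 12 in the low-fat PBS pool. Their summed level (log2) was 7.61 and 6.51 in the high-fat and low-fat clodronate pools, against 12.48 and 12.61 in the PBS pools, and Clec4f was at 1.88 and 1.92 against 9.42 and 9.40. All 11 hepatocyte markers with a probe set were at 4 or more on every array, and their summed level (log2) lay between 17.13 and 17.17. Such a sum follows its brightest genes. Within it G6pc had a high-fat minus low-fat difference of -0.89 (log2) after PBS and -0.93 after clodronate. Of the 11 markers, 6 were above 0 with the high-fat diet after PBS and 5 after clodronate. In bulk liver, fewer cells of a type and less RNA per cell cannot be told apart. Of the cholangiocyte markers Krt7, Krt19, Epcam and Cftr were below 4 on all arrays, and Sox9 was at most at 4.42, which touches the pumps because bile duct cells can also carry some of them. The summed level of 7 sinusoidal endothelial markers (log2) was between 10.81 and 10.97, that of 5 analysed stellate cell markers between 10.40 and 10.52, and that of 3 analysed markers of other leukocytes between 6.32 and 7.41. Single endothelial markers were less level than their sum. On the high-fat diet clodronate minus PBS was -0.75 (log2) for Pecam1 and 0.64 for Lyve1.

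The high-fat diet was set against the low-fat diet to ask which transporters differ with diet. Abcc3 had the largest diet difference of the 9 measured transporters, and it was of nearly the same size after both injections. Slco1a4, Abcg2, Abcb4 and Slco2b1 were also higher on the high-fat diet in both injection groups, by smaller amounts. Slco1b2, Abcc2, Abcc6 and Slco1a1 differed little between the diets by the probe sets used. Of these, Slco1b2 and Abcc2 were also higher on the high-fat diet in both injection groups. They were higher by 0.12 and 0.19 (log2) after PBS and by 0.03 and 0.02 after clodronate. The other probe set of Slco1a1 had a mean diet difference of -0.27. None of the 9 passed limma's test over all genes with 1 prior variance, the main fit. Abcc3 was called only in an alternative fit, with a prior variance that depends on the mean. That fit called more genes for diet, since 0.867% rose and 0.821% fell, against 0.0% each way in the main fit.

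Among the pumps of the sinusoidal membrane, Abcc3 (MRP3) sends glucuronide conjugates and bile acids from the hepatocyte back into blood. Its level (log2) was 9.95 in the high-fat clodronate pool and 10.02 in the high-fat PBS pool, against 9.32 in the low-fat clodronate pool and 9.33 in the low-fat PBS pool. Both high-fat pools lay above both low-fat pools. The share of all analysed genes with such an order was not counted, here or for the members below. The high-fat pools exceeded the low-fat pools 1.55-fold after clodronate and 1.61-fold after PBS. The mean diet difference was 0.66 ± 0.04 (SD of the 2 differences, n = 2), with a limma 95% interval from 0.36 to 0.95 and a Benjamini-Hochberg adjusted p of 0.321. With a mean-dependent prior variance the adjusted p of limma was 0.00557. By its unadjusted p, Abcc3 ranked at 82 of the 8650 genes. Abcc3 was the single member past 1.5-fold on the high-fat diet, both after clodronate and after PBS, where 1.69% and 2.15% of the analysed genes were 1.5-fold or more higher. No member was 1.5-fold or more lower on the high-fat diet, where 4.79% and 1.47% of the genes were. At 2-fold, 0 of 9 members were past the threshold in either direction. After clodronate 0.358% of the genes were 2-fold or more higher on the high-fat diet and 0.74% lower, and after PBS 0.335% were higher and 0.335% lower.

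Abcc6, a sinusoidal ABC protein whose loss in humans causes ectopic calcification, did not separate by diet. Its level (log2) was 9.62 in the high-fat clodronate pool and 9.70 in the high-fat PBS pool, against 9.68 and 9.48 in the low-fat clodronate and low-fat PBS pools. The low-fat PBS pool was lowest, and the diets overlapped. Its diet difference averaged 0.08 ± 0.20 (SD, n = 2), and limma's 95% interval ran from -0.27 to 0.43.

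**Figure D1:**
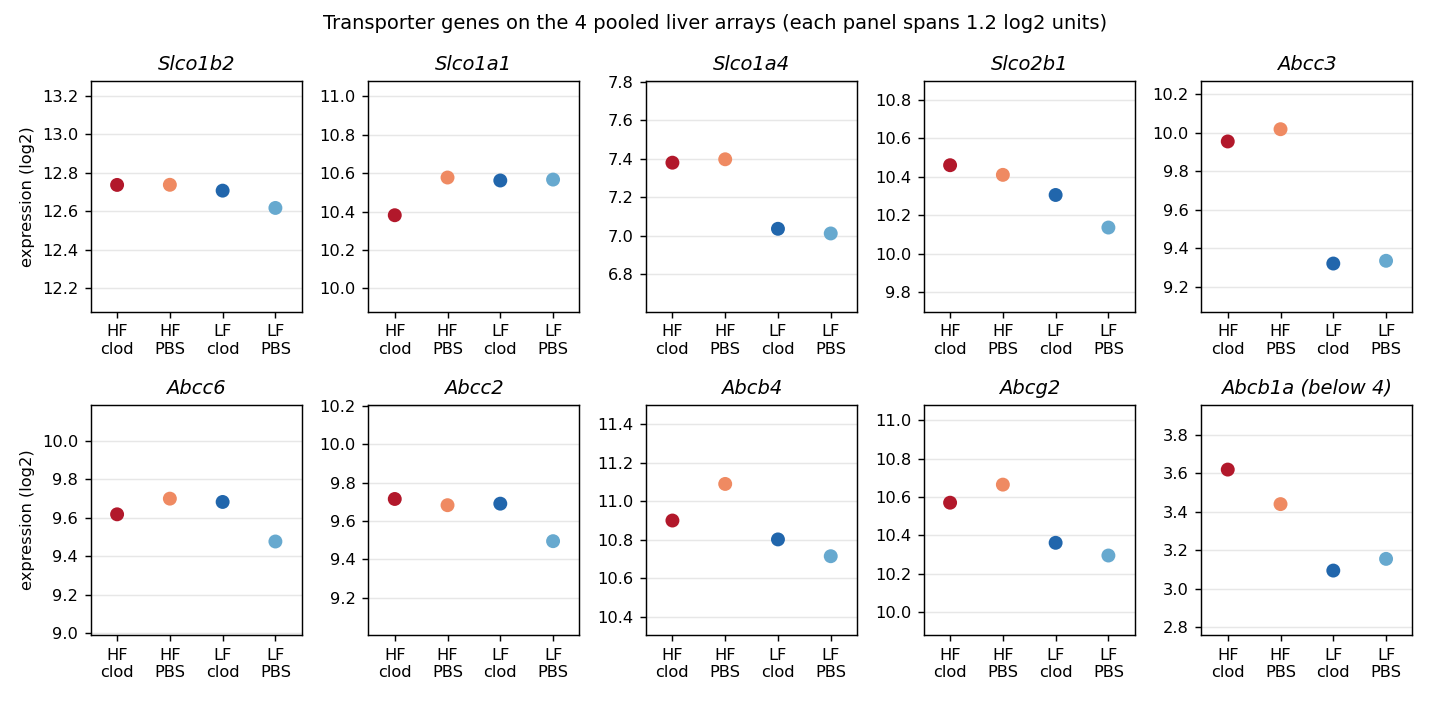
Expression (log2, vertical axis) of the 10 transporter genes, each by the probe set that stands for it, on the high-fat clodronate (HF clod), high-fat PBS (HF PBS), low-fat clodronate (LF clod) and low-fat PBS (LF PBS) arrays, 1 point per array. Abcc3 and Slco1a4 separate widely by diet, with both high-fat points above both low-fat points, while Abcb1a is below 4 throughout.

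Among the uptake carriers, Slco1a4 (Oatp1a4), which carries bile acids and cardiac glycosides, had the next largest mean diet difference after Abcc3. Its level (log2) was 7.38 in the high-fat clodronate pool and 7.40 in the high-fat PBS pool, against 7.04 in the low-fat clodronate pool and 7.01 in the low-fat PBS pool. The diets did not overlap, and the injections differed by at most 0.02 within a diet. The mean diet difference was 0.36 ± 0.03 (SD, n = 2), with limma's 95% interval from 0.07 to 0.66 and a Benjamini-Hochberg adjusted p of 0.418. Slco1a4 and Abcc3 were the 2 members whose interval lay above 0 before adjustment over all genes. Of the 8650 analysed genes, 894 had an unadjusted limma p under 0.05 for diet, in either direction.

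Slco2b1, a widely expressed carrier of sulfated steroids, was at 10.46 (log2) in the high-fat clodronate pool and 10.41 in the high-fat PBS pool, against 10.30 and 10.14 in the low-fat clodronate and low-fat PBS pools. Both high-fat values were above both low-fat values. Averaged over injections the diet difference was 0.21 ± 0.08 (SD, n = 2), with limma's interval from -0.09 to 0.52. Another probe set of Slco2b1 read 9.12, 9.13, 9.09 and 8.86 in the same 4 pools and gave a mean diet difference of 0.15. The remaining Slco2b1 probe set was below 4 on all arrays.

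Slco1b2, the carrier of bilirubin and of many drugs that mice have in place of the human OATP1B pair, was nearly level. It was at 12.74 (log2) in both high-fat pools, against 12.71 and 12.62 in the low-fat clodronate and low-fat PBS pools. Its 2 other measured probe sets gave mean diet differences of 0.10 and 0.12, beside 0.08 ± 0.06 (SD, n = 2) for the one used. The low-fat PBS pool was the lowest of the 4 in all 3 measured probe sets. A further 2 probe sets of Slco1b2 were below 4 on all arrays. One of the measured probe sets of Slco1b2, the one used for Slco2b1 and the only one of Abcc2 carry the suffix _s_at, which Affymetrix gives to probe sets that can match more than one transcript.

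Slco1a1 (Oatp1a1), a male-predominant carrier of the mouse liver, was the single member with a mean diet difference below 0, and its probe sets did not give the same record. By the probe set used it was at 10.38 (log2) in the high-fat clodronate pool and 10.58 in the high-fat PBS pool, against 10.56 and 10.57 in the low-fat clodronate and low-fat PBS pools. In it the high-fat clodronate pool stood below the other 3, which lay together. The other probe set read 10.18 in the high-fat clodronate pool and 10.36 in the high-fat PBS pool, against 10.45 and 10.64 in the low-fat clodronate and low-fat PBS pools. There both high-fat pools were below both low-fat pools, and both clodronate pools were below the PBS pools of their diet. The mean diet difference was -0.08 ± 0.14 (SD, n = 2) by the first, with limma's interval from -0.40 to 0.23, and -0.27 by the other.

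**Figure D2:**
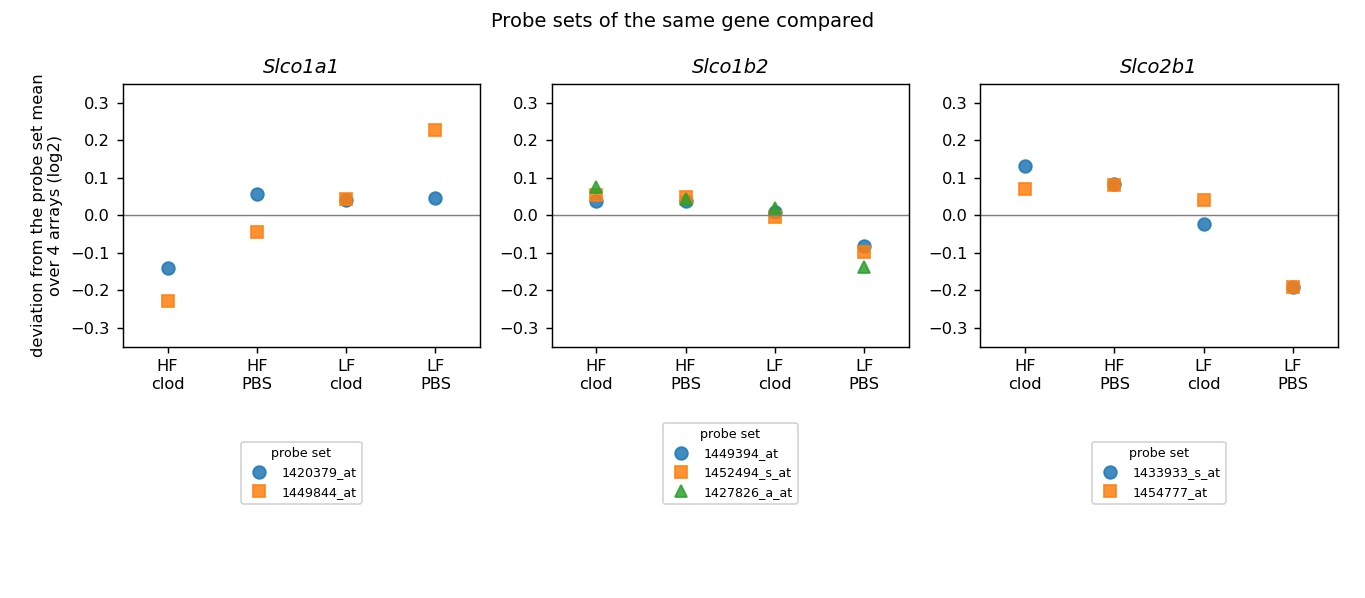
Deviation of each measured probe set from its own mean over the 4 arrays (log2, vertical axis) for Slco1a1, Slco1b2 and Slco2b1, on the high-fat clodronate, high-fat PBS, low-fat clodronate and low-fat PBS arrays. Probe sets of Slco1b2 and of Slco2b1 lie close to each other, whereas those of Slco1a1 lie furthest apart on the low-fat PBS array.

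At the canalicular membrane, Abcg2 (BCRP), which exports sulfate conjugates and urate, was at 10.57 (log2) in the high-fat clodronate pool and 10.66 in the high-fat PBS pool, against 10.36 and 10.30 in the low-fat clodronate and low-fat PBS pools. Abcb4, which moves phosphatidylcholine into bile, was at 10.90 and 11.09 in the high-fat clodronate and high-fat PBS pools, against 10.80 and 10.71 in the low-fat ones. For both genes the 2 high-fat pools were above the 2 low-fat pools, as they also were, by less, for Slco1b2. The mean diet difference was 0.29 ± 0.11 for Abcg2 and 0.24 ± 0.20 for Abcb4 (SD, n = 2 each). Limma's 95% intervals, from -0.02 to 0.60 and from -0.11 to 0.58, held 0.

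Abcc2 (MRP2), the bile pump for bilirubin glucuronides that is defective in human Dubin-Johnson syndrome, was at 9.71 (log2) in the high-fat clodronate pool and 9.68 in the high-fat PBS pool, against 9.69 and 9.49 in the low-fat clodronate and low-fat PBS pools. As for Abcc6, the low-fat PBS pool was the lowest and the other 3 lay close together. Averaged over injections its diet difference was 0.11 ± 0.12 (SD, n = 2), with limma's interval from -0.21 to 0.42. Abcb1a, a P-glycoprotein gene, reached at most 3.62 on any array in one probe set and 2.66 in the other, so no difference could be measured. Its close relative Abcb1b was below 4 as well.

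**Figure D3:**
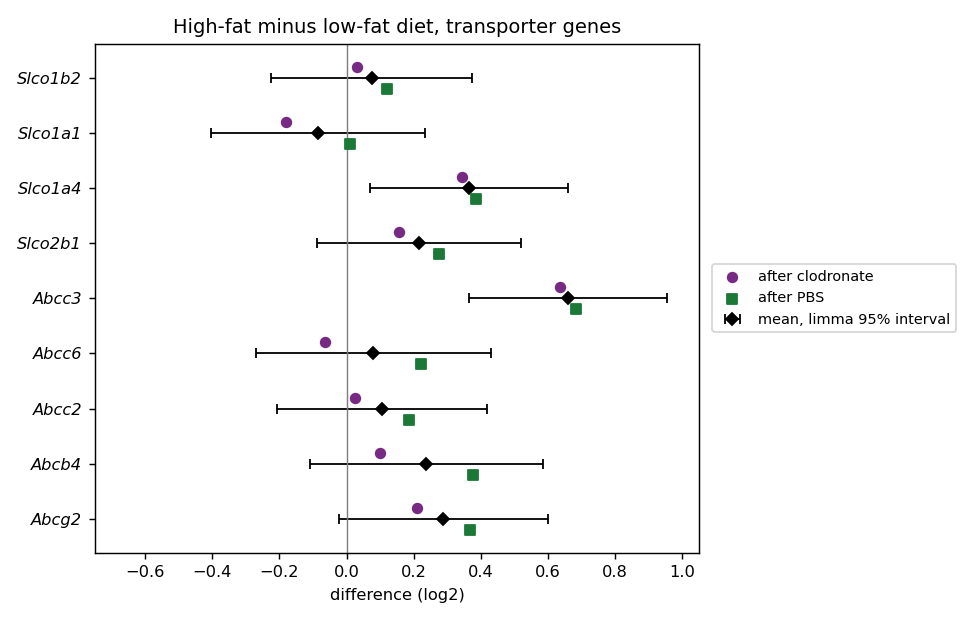
High-fat minus low-fat difference (log2, horizontal axis) of the 9 measured transporters after clodronate (circles) and after PBS (squares), with the mean of both and limma's 95% interval (diamonds and bars). Intervals of Abcc3, from 0.36 to 0.95, and Slco1a4, from 0.07 to 0.66, lie above 0.

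As a group, 9 of 9 measured members were higher on the high-fat diet after PBS, where 49.5% of all analysed genes were, and the member median was 0.27 (log2) against 0 over all genes. By the probe sets used, the low-fat PBS array was the lowest for every member but Abcc3 and Slco1a1. That array also enters clodronate minus PBS on the low-fat diet, so the group counts of both comparisons share it. Slco1a1 counted as higher by 0.01 with the probe set used, but its other probe set was at -0.27, and the value turned to -0.00322 with quantile normalization. After clodronate 7 of 9 were higher, where 33.1% of all genes were, and the medians were 0.10 for the members and -0.08 for all genes. Abcc6 and Slco1a1 were the members below 0 there, at -0.06 and -0.18, and Abcc6 was at 0.04 after each array was centred on its median. Centring moved the high-fat clodronate array against the low-fat clodronate array by 0.10. Averaged over injections, 8 of 9 members were above 0 with a median of 0.21, against 38.9% of all genes and a median of -0.04. In limma with Benjamini-Hochberg adjustment 0 of 9 members were called, as were 0.0% of the analysed genes in either direction. At an unadjusted p under 0.05 there were 2 of 9 members, Abcc3 and Slco1a4, and 894 of the 8650 genes. With a mean-dependent prior 1 of 9 members rose, where 0.867% of the genes rose and 0.821% fell. Under that prior 5 of 9 members and 1141 of the 8650 genes had an unadjusted limma p under 0.05. With 1 residual degree of freedom, which holds array noise and any dependence of one factor on the other, p-values here say nothing of the spread between mice.

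Clodronate was set against PBS to ask whether the transporters differ when macrophages are depleted. No measured transporter differed by 1.5-fold or more after clodronate on either diet. By the probe sets used, the mean differences over both diets lay between -0.10 for Slco1a1 and 0.11 for Abcc2. Limma's 95% interval held 0 for each of the 9 members, so none of these mean differences could be told from none. The outermost ends of these intervals were -0.42 and 0.43. The other probe set of Slco1a1 had a mean difference of -0.18 with an interval from -0.50 to 0.13 in the fit of all probe sets, and another of Slco2b1 an interval that reached 0.47. Of 7 markers of other leukocytes with a probe set, Cd3e, Cd8a, Cd79a and Nkg7 were below 4 on all arrays, and S100a8 and S100a9 were at 4 or more in the low-fat clodronate pool alone, at 4.15 and 4.05. Ighm, an immunoglobulin heavy chain gene of B cells, was at 7.26 and 6.80 (log2) in the high-fat and low-fat clodronate pools, against 6.25 and 6.14 in the high-fat and low-fat PBS pools. Limma called 0 of the 3 analysed ones, and their part in the transporter values was not tested. In limma 8 of the 12 Kupffer cell markers fell after clodronate.

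On the low-fat diet Abcc6 and Abcc2 gave the largest differences, 0.21 and 0.20 (log2, clodronate minus PBS), followed by Slco2b1 at 0.17. These 3 were 1.15-fold, 1.14-fold and 1.12-fold higher after clodronate. Slco1b2, Abcb4 and Abcg2 differed by 0.09, 0.09 and 0.07. Slco1a4, Slco1a1 and Abcc3 were nearest to 0, at 0.02, -0.00481 and -0.01 by the probe sets used. The other probe set of Slco1a1 was at -0.18. In all, 7 of 9 members were above 0, where 59.7% of all genes were, and 0 of 9 were past 1.5-fold, where 1.75% of the genes were higher and 1.63% lower (0.22% and 0.705% at 2-fold). The sign of Slco1a4 turned after the arrays were centred.

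On the high-fat diet Slco1a1 and Abcb4 gave the largest differences, -0.20 and -0.19 (log2, clodronate minus PBS), 1.15-fold and 1.14-fold lower after clodronate. Abcg2, Abcc6 and Abcc3 differed by -0.09, -0.08 and -0.06, and Slco2b1 and Abcc2 by 0.05 and 0.03. The other measured probe sets of Slco1a1 and Slco2b1 were at -0.18 and -0.01. Slco1a4 was at -0.02 and Slco1b2 at -0.000674. Here 7 of 9 members were below 0, where 61.3% of all genes were, and 0 of 9 were past 1.5-fold, where 0.636% of the genes were higher and 2.98% lower (0.0925% and 0.809% at 2-fold). The signs of Abcc3, Slco1a4 and Slco1b2 turned after the arrays were centred.

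**Figure D4:**
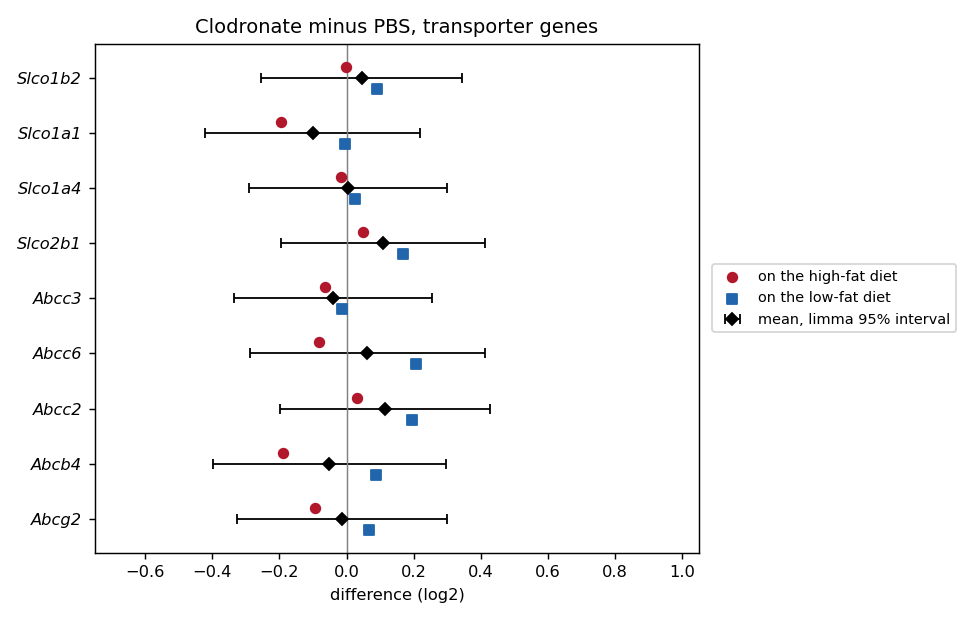
Clodronate minus PBS difference (log2, horizontal axis) of the 9 measured transporters on the high-fat diet (circles) and on the low-fat diet (squares), with the mean of both and limma's 95% interval (diamonds and bars). Every interval holds 0, and circles lie left of squares for all 9 genes by the probe set plotted.

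Averaged over diets, 0 of 9 members were called in limma with Benjamini-Hochberg adjustment, where 0.0% of the genes rose and 0.451% fell. An unadjusted limma p under 0.05 was found for 0 members and for 441 of the 8650 genes. With a mean-dependent prior the count of members called after adjustment was also 0, where 0.116% of the genes rose and 0.971% fell. By the probe sets used, clodronate minus PBS was lower on the high-fat than on the low-fat diet for all 9 members, by 0.04 to 0.29 on the log2 scale, as it was for 65.9% of all genes. The other probe set of Slco1a1 was an exception, at -0.182 on the high-fat and -0.184 on the low-fat diet. After centring, 6 of the 9 were lower, where 47.9% of all genes were. With 1 array per group this dependence on diet could not be tested.

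Other carriers and pumps gave few measurable values. Of 15 other organic ion uptake carriers 13 had a probe set and 5 were analysed, and limma called 0 of them for diet or clodronate. The clustered Slco1c1, Slco1a6 and Slco1a5 were below 4 on all arrays. Slco2a1, a prostaglandin carrier, was lower on the high-fat diet, at 8.01 and 8.32 (log2) in the high-fat clodronate and high-fat PBS pools, against 8.66 and 8.82 in the low-fat ones. Its mean diet difference was -0.57, opposite to that of Slco2b1 (Benjamini-Hochberg adjusted p of limma 0.343, and 0.0373 with a mean-dependent prior). Slc22a5, the carnitine carrier, was at 6.30 and 6.23 in the high-fat clodronate and high-fat PBS pools, against 6.03 and 5.45 in the low-fat pools, 0.78 (log2) higher on the high-fat diet after PBS. Slc10a2, a bile acid carrier of ileum and bile ducts, was near the limit of measurement, at 4.87 and 5.03 in the high-fat pools against 4.22 and 4.56 in the low-fat pools. Slc22a7, an organic anion carrier, had mean differences of 0.13 with diet and 0.17 with clodronate.

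Of 13 other export pumps and exporters 5 were analysed, 0 were called and 0 reached 1.5-fold in any pair of arrays. The cholesterol pump gene Abcg8 and Slc47a1, which extrudes organic cations, had mean diet differences of 0.29 and 0.28. Atp8b1, a phospholipid flippase, and Abcb11, the bile salt pump, had mean diet differences of -0.25 and -0.18. The other 8 were below 4 on all arrays.

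Of the 15 regulators and membrane anchors 14 were analysed and 0 were called, with a median mean diet difference of 0.08. Nr1i3, which encodes CAR, was at 9.08 and 9.26 (log2) in the high-fat clodronate and high-fat PBS pools, against 8.75 and 8.35 in the low-fat clodronate and low-fat PBS pools. Both high-fat values were above both low-fat values, and after PBS the diet difference was 0.91. Ahr, the aryl hydrocarbon receptor, had a mean diet difference of 0.45 ± 0.10, Ppara, the fatty acid sensor, of 0.32 ± 0.01 and Nr1i2, which encodes PXR, of 0.24 ± 0.16 (SD, n = 2 each). Their adjusted p in limma was 0.361, 0.454 and 0.562 (Benjamini-Hochberg).

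Of 9 target enzymes of CAR and PXR 6 were analysed and 0 were called, with a median diet difference of 0.48 after PBS and 0.13 after clodronate. Cyp2b9 was at 5.90 and 6.64 in the high-fat clodronate and high-fat PBS pools and below 4 in both low-fat pools, at least 1.90 and 2.64 (log2) higher on the high-fat diet (Benjamini-Hochberg adjusted p of limma 0.182, and 0.000572 with a mean-dependent prior). Cyp2b10 was at 5.77 in the high-fat PBS pool and below 4 in the other 3, which put the high-fat clodronate pool at least 1.77 (log2) under the high-fat PBS pool. Alas1, the first enzyme of haem synthesis, was at 11.01 and 11.44 in the high-fat clodronate and high-fat PBS pools against 11.34 and 10.85 in the low-fat pools, so that its diet difference was -0.32 after clodronate and 0.59 after PBS. Cyp2c37 had a mean diet difference of 0.26 and Cyp3a11 a mean clodronate difference of -0.17.

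Of 9 target enzymes of NRF2, 7 were analysed, and 1 fell after clodronate in limma. Hmox1, the haem oxygenase of macrophages and other cells, fell by 2.03 ± 0.07 on the log2 scale (SD, n = 2, Benjamini-Hochberg adjusted p of limma 0.0185). It moved with the Kupffer cell markers given above, and their part in it was not tested. Gstm3, Gclm and Gstm1 had mean diet differences of -0.47, -0.12 and -0.12. Of 7 male-biased liver genes, listed because Slco1a1 is one as well, 5 were analysed and 0 were called. Elovl3 had a mean diet difference of -0.55 ± 0.05 (SD, n = 2, adjusted p of limma 0.343, and 0.00361 with a mean-dependent prior), Hsd3b5 of -0.32 and Cyp7b1 of 0.10. Cyp4a12a had a mean clodronate difference of -0.40.

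The genes nearest in pattern to Abcc3 and Slco1a4, the members with the widest range over the arrays by the probe set that stands for each gene, were sought by the root mean square distance (log2) between profiles centred on their own mean over 4 arrays, among 7944 other genes at 4 or more on all arrays. For Abcc3 these were Cyp1a2 (0.0414), Sult1b1 (0.0468), Arhgap26 (0.0489), Ppm1k (0.0521) and Mtmr9 (0.0577). Cyp1a2 was at 12.31 and 12.38 in the high-fat clodronate and high-fat PBS pools, against 11.65 and 11.77 in the low-fat pools. For Slco1a4 these were Aldh1a1 (0.0083), Pgpep1 (0.0175), Pim3 (0.0181), Eef1akmt1 (0.0199) and Slc25a10 (0.0238). Aldh1a1 was at 13.46 and 13.47 in the high-fat clodronate and high-fat PBS pools, against 13.10 and 13.09 in the low-fat pools. With 4 arrays such a likeness only describes these pools.

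**Figure D5:**
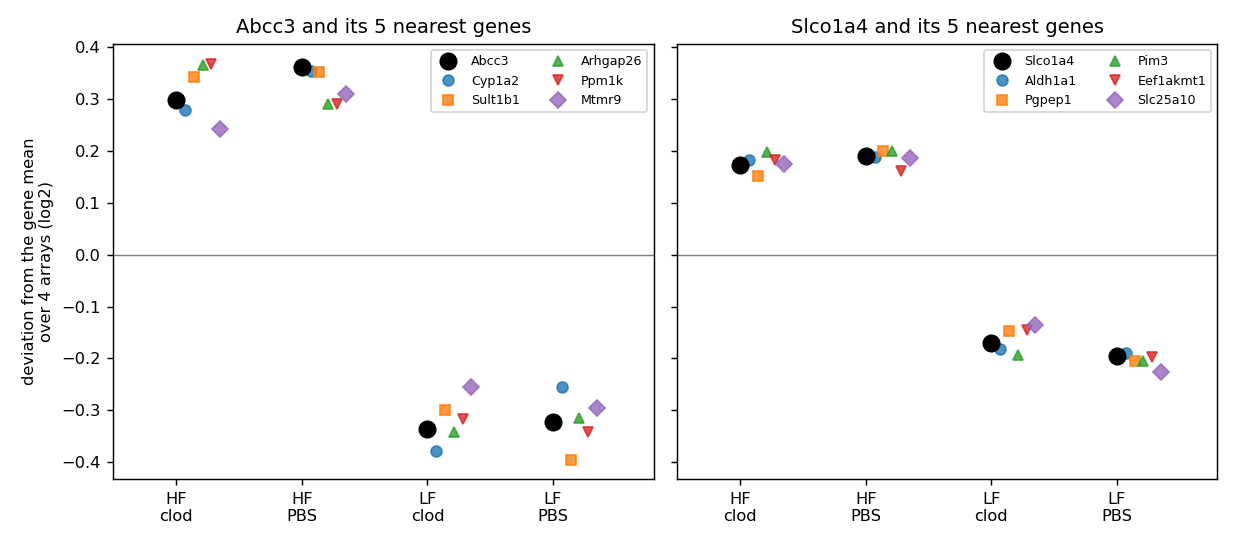
Deviation from each gene's own mean over the 4 arrays (log2, vertical axis) for Abcc3 (left) and Slco1a4 (right), as black points, and for the 5 genes nearest to each in pattern, on the high-fat clodronate, high-fat PBS, low-fat clodronate and low-fat PBS arrays. All points of both panels are above 0 on the high-fat arrays and below 0 on the low-fat arrays.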

How the data were processed

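Liver RNA pools of 4 groups were measured on 1 Affymetrix array each. For 45101 probe sets the authors deposited log2 values. The submitters' processing notes name GCRMA 2.24.1, a method that models background from probe sequence before arrays are normalized together. Array medians lay between 2.73 and 2.79, and 33.5% to 34.5% of probe sets were at 4 or more. Names came from the platform annotation, where 34958 probe sets carried 1 gene symbol, 932 several, and 9211 none. Entrez identifiers of all 18 member probe sets matched the RefSeq table, and 0 symbols changed.

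Each gene was represented by its single-symbol probe set with the highest mean, and genes that reached 4 on any array were kept (8650). Differences between single arrays were taken after values below 4 were set to 4. The diet effect over both injections and the clodronate effect over both diets came from limma 3.58.1 under R 4.3.3 (additive model, values as deposited, 1 prior variance, Benjamini-Hochberg adjustment at 0.05 over all genes). The 95% intervals are limma's and are not adjusted. The fits were also run on simulated data with changes of 2-fold or more, larger than any member's. In those data the spread did not depend on level, and neither factor depended on the other. The alternatives were another choice of probe set, scaling, filter, floor, prior, fold or unit tested. Tables were handled with pandas 2.3.3 and numpy 2.4.6 under Python 3.11.15. The 10 members and the 12 lists were chosen with earlier results of these data known. Named genes were all members, and of each pathway list those called, those at 1.5-fold in any pair and up to 4 with the largest mean difference, plus the 5 nearest genes of 2 members.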

Additional observations from a re-analysis of the deposited data

Results flagged for a closer look

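Clodronate minus PBS had opposite signs on the 2 diets for 5 transporters, and these differences were not tested. On the high-fat and low-fat diets they were -0.19 and 0.0873 for Abcb4, -0.0815 and 0.206 for Abcc6, -0.094 and 0.0661 for Abcg2, -0.0177 and 0.0243 for Slco1a4, and -0.000674 and 0.0900 for Slco1b2 (log2). After the arrays were centred the signs of Slco1a4 were turned round, at 0.05 and -0.01, and Slco1b2 was above 0 on both diets.

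The diet difference had opposite signs after the 2 injections for 2 transporters, and this was not tested either. After clodronate and after PBS it was -0.0643 and 0.223 for Abcc6, and -0.181 and 0.0107 for Slco1a1 (log2). Abcc6 was above 0 after both injections once the arrays were centred, and Slco1a1 below 0 after both with quantile normalization. The other probe set of Slco1a1 was at -0.271 after clodronate and -0.272 after PBS with the values as deposited.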

How the results depend on the processing

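For the diet and clodronate effects averaged over the other factor, the directions and calls of the 9 members held in 142 combinations with an alternative. The exceptions among these were Abcc3, which rose with diet under a mean-dependent prior (0.66), and Abcg2, whose mean clodronate difference turned to 0.00267 after centring. The changes of prior, filter and floor and the fit of all probe sets left each member's mean difference as it was. In those combinations only the call could change, so they do not test direction. Averaging probe sets could move only Slco1a1, Slco1b2 and Slco2b1. Differences between single arrays were less stable, and rescaling turned the sign of Slco1a4, Abcc3, Slco1b2, Abcc6 or Slco1a1 in at least 1 pair of arrays. Members called for diet were 1 under that prior, against 0 otherwise. Genes that fell after clodronate numbered 39, but 84 with a mean-dependent prior (10 rose), 23 after centring and 19 with quantile normalization. Among genes at 4 or more on all arrays 1 fell, and when all 16298 probe sets were tested 11 probe sets fell. With diet 75 genes rose and 71 fell under the mean-dependent prior. At 2-fold in place of 1.5-fold, members past the fold with diet were 0 and 0. The median of members for clodronate on the high-fat diet turned to 0.00521 after centring. Genes past 1.5-fold were 151 higher for clodronate on the low-fat diet (99 with quantile normalization, 99 with a floor of 5) and 141 lower, 55 higher on the high-fat diet (93 with quantile normalization, 29 with a floor of 5) and 258 lower, 186 higher and 127 lower (78 with a floor of 5) with diet after PBS, and 146 higher and 414 lower with diet after clodronate (229 and 254 after centring, 246 and 214 with quantile normalization). At 2-fold these pairs were 19 and 61, 8 and 70, 29 and 29, and 31 and 64. The causes were not tested. No paired analysis was possible because each group had 1 pooled array and the labels carry no replicate number, while the additive fit already compares arrays within a diet and within an injection. Values near 4 limit Abcb1a and the dim probe sets, and the single array per group limits every difference.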
